A study of Rattus norvegicus with 6 samples.

Results

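The carriers described here move amino acids and amino acid-derived transmitters across cell membranes. They were chosen by symbol, as the genes of the solute carrier families Slc1a, Slc3a, Slc6a, Slc7a, Slc36a, Slc38a and Slc43a in the count table, without Slc1a2, Slc1a3, Slc7a2 and Slc7a11. This gave 55 of the 16876 gene symbols. One of the 55, Slc7a6os, shares its neighbour's name but is a nuclear import factor for RNA polymerase and not a carrier. The other 54 are carriers, their partner chains or relatives whose substrate is not settled. RNA was measured by sequencing of polyadenylated transcripts in 6 libraries labelled as primary microglia of the rat. In 3 libraries the cells had 24 h with PSNPs (polystyrene nanoplastics) and in 3 they had 24 h with IR-813, a near-infrared dye. All cells had been shaken off mixed cultures grown in serum-containing medium. The labels give no dose, strain, age or number of animals, and no untreated library was analysed here, so that higher and lower always mean PSNPs relative to IR-813.

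These families work by different means. Carriers of family 1 and family 6 use the sodium gradient to pull glutamate, GABA, glycine, monoamines or neutral amino acids into cells, and in the brain they end transmission at synapses. The family 7 light chains are exchangers that reach the surface only when bound to a heavy chain of family 3, and the CD98 heavy chain Slc3a2 with Slc7a5 is the best known pair. Families 36 and 38 carry amino acids together with protons or sodium, some of them at the lysosome. In many mammalian cells a shortage of amino acids or stress of the endoplasmic reticulum raises a set of these genes through the transcription factor ATF4.

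The libraries held between 19166605 and 22553507 counts, and the 55 genes took 0.249% to 0.267% of them with PSNPs and 0.379% to 0.465% with IR-813. Over all genes the correlation of log CPM was 0.995 between PSNPs replicates 1 and 2, and 0.974 and 0.971 between these and PSNPs replicate 3, which stood apart. The label of the cells was checked against markers. The astrocyte gene Gfap averaged 1309 with PSNPs and 1125 with IR-813 on the deposited per-length scale, and the microglia gene Aif1 43.7 and 102, so astrocyte transcripts were abundant in libraries labelled microglia. The summed level of 8 microglia markers lay between 387 and 528 CPM with PSNPs and between 602 and 842 CPM with IR-813, with 6 of the 8 lower. For 10 neuron markers these ranges were 165 to 198 CPM and 386 to 399 CPM, with 7 lower. For 12 oligodendrocyte-lineage markers they were 4502 to 5213 CPM and 7258 to 8416 CPM, with 11 lower and 1, Olig1, higher. The 10 astrocyte markers overlapped between the groups (7797 to 8607 CPM and 6545 to 8359 CPM), with 5 higher and 1 lower. The 8 markers of fibroblasts, pericytes and endothelium summed to 74.5 to 85.2 CPM with PSNPs and 75.1 to 126 CPM with IR-813. Of these, 5 were tested, with 2 lower and 0 higher. The 6 markers of infiltrating blood cells summed to at most 0.159 CPM with PSNPs and 0.0462 CPM with IR-813, with 4 of them at 0 in every library. Among all 11679 tested genes 20.1% were called lower and 20.9% higher. In such bulk libraries fewer cells of a type and less RNA per cell cannot be told apart, and the part of the cell mixture in the values that follow was not tested.

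Of the 55 genes, 33 passed the filter on low counts, each of them in the libraries of both groups, and 22 did not. By edgeR's quasi-likelihood test 14 of the 33 were lower with PSNPs, 3 were higher and 16 did not pass an adjusted p of 0.05. Among all 11679 tested genes 41.0% passed, 20.1% lower and 20.9% higher. Falls of at least 2-fold were found for 9 of the 33 genes and for 8.81% of all genes, and rises of that size for 2 of them and 4.67% of all genes. The median log2 fold change was −0.46 over the 33 genes and −0.01 over all tested genes. The libraries of the 2 groups did not overlap for 17 of the 33 genes on the lower side and for 5 on the higher side, against 31.4% and 30.0% of all tested genes (61.4% on either side). Without PSNPs replicate 3, 7 of the 33 were higher and 18 were lower, while 30.4% of the 11798 genes tested in that fit were higher and 29.5% lower. Slc7a14 then passed the filter too, but through the IR-813 libraries alone, so it had to be lower and its call is no result.

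**Figure D1:**
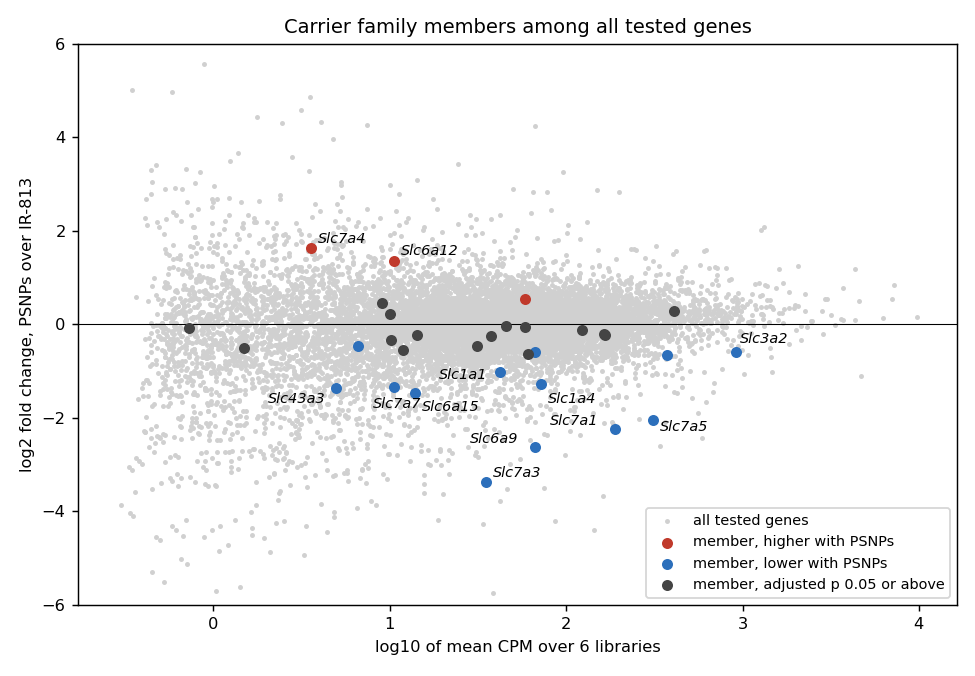
Log2 fold change (PSNPs over IR-813, y axis) against the log10 of the mean CPM over 6 libraries (x axis) for all tested genes (grey) and 32 of the 33 tested carrier family members (coloured by call). The 4 carriers with the strongest falls, Slc7a3, Slc6a9, Slc7a1 and Slc7a5, lie at −3.38 to −2.05, and 8 genes beyond 6 on the y axis are not shown.

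The largest fall among the 33 was in a carrier gene for cationic amino acids. Slc7a3, which encodes the arginine and lysine carrier CAT3, stood at 5.10, 6.47 and 6.89 CPM in the PSNPs libraries, against 73.4, 68.3 and 50.4 CPM in the IR-813 libraries. Every PSNPs library lay far below every IR-813 library, and the log2 fold change was −3.38 ± 0.19 (estimate ± SE; adjusted p = 0.000101), or 10.4-fold lower. Slc7a1, which encodes CAT1, the widely expressed carrier of the same kind, stood at 74.8, 74.1 and 49.7 CPM with PSNPs, against 353, 333 and 249 CPM with IR-813. Its groups were also well apart, with a log2 fold change of −2.24 ± 0.20 (adjusted p = 0.000368). Their relative Slc7a4, for which no amino acid transport has been settled, went the other way and was the carrier with the largest rise. It had 6.43, 4.88 and 4.80 CPM with PSNPs, against 1.74, 1.77 and 1.71 CPM with IR-813. The rise of 1.62 ± 0.18 on the log2 scale (adjusted p = 0.000719) was 0.94 on the deposited log2 scale, where a constant of 1 compresses the changes of low genes. Slc7a14, a lysosomal relative, had 3, 4 and 1 counts with PSNPs and 12, 10 and 15 counts with IR-813 and did not pass the count filter. With no filter edgeR called it lower (−2.02 ± 0.47, adjusted p = 0.0137), but every PSNPs library lay under the count minimum.

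The heavy chain and its light chains did not move by equal amounts. Slc7a5 encodes LAT1, which takes up leucine and other large neutral amino acids in exchange for glutamine. It stood at 119, 122 and 122 CPM with PSNPs, against 553, 521 and 429 CPM with IR-813. The PSNPs libraries were nearly equal to each other and 4.14-fold below the IR-813 libraries (log2 fold change −2.05 ± 0.11, adjusted p = 0.000101). Its partner, the CD98 heavy chain gene Slc3a2, stood at 685, 684 and 833 CPM with PSNPs, against 1252, 1150 and 928 CPM with IR-813. The groups did not overlap, but the highest PSNPs and the lowest IR-813 library were close, and the log2 fold change was −0.60 ± 0.14 (adjusted p = 0.0151). The fall lost its call when PSNPs replicate 1 was omitted (adjusted p = 0.0539), and likewise on omitting IR-813 replicate 1 (0.0611) or replicate 2 (0.0622). Its adjusted p lay between 0.00173 and 0.0622 under the 11 alternatives. Reads of the pseudogene Slc3a2-ps1, listed in the reference, could have been counted with Slc3a2.

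Slc7a8 encodes LAT2, the other main carrier of neutral amino acids with this heavy chain. It was not among the falling genes and stood at 480, 442 and 416 CPM with PSNPs, against 398, 397 and 306 CPM with IR-813. Its groups did not overlap, but the log2 fold change of 0.28 ± 0.12 did not pass (adjusted p = 0.109), and it passed without PSNPs replicate 3 (0.33, adjusted p = 0.0367). The other light chains were lower or scarce. Slc7a7, the y+LAT1 gene and a light chain of macrophages, stood at 6.20, 4.83 and 7.04 CPM with PSNPs, against 12.7, 16.6 and 16.3 CPM with IR-813. It was lower (−1.33 ± 0.18, adjusted p = 0.00180), in libraries in which the summed microglia markers were lower as well. Slc7a6, the y+LAT2 gene, fell in all PSNPs libraries, with 53.2 ± 4.76 CPM and 79.9 ± 2.86 CPM with IR-813 (SD, n = 3 each; log2 fold change −0.59, adjusted p = 0.00340). Slc7a10, the gene of the D-serine and alanine carrier Asc-1, was near the limit of detection at 0.711 ± 0.251 CPM with PSNPs and 0.747 ± 0.127 CPM with IR-813 (adjusted p = 0.849).

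Slc3a1, the heavy chain of the kidney cystine carrier, was low, with 5.47, 6.0 and 5.22 CPM in PSNPs libraries and 6.71, 8.20 and 8.00 CPM in IR-813 libraries. Its fall was small (−0.46 ± 0.14, adjusted p = 0.0366) and was lost in 6 of 11 alternatives, among them the omission of any library other than PSNPs replicate 3, with adjusted p from 0.0240 to 0.148 over all of them. Its light chain Slc7a9 had no more than 1 count in any library.

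Levels of different genes can be compared only per length. In the deposited values the count of a gene divided by its unlogged value was nearly constant across libraries, after 1 factor per library. That alone would hold for any fixed divisor per gene. The implied lengths had a Spearman correlation of 0.54 with the distance the gene covers in the reference. The deposited values are treated as per length on this basis, with the constant of 1 removed. On this scale Slc7a5 made up 20.3%, 22.1% and 23.1% of 5 tested light chains (Slc7a5, Slc7a6, Slc7a7, Slc7a8 and Slc7a10, without Slc7a11) in the PSNPs libraries, against 56.3%, 54.5% and 54.1% in the IR-813 libraries. For Slc7a8 the shares were 68.5%, 66.9% and 65.7% with PSNPs, against 33.8%, 34.7% and 32.2% with IR-813. The leading light chain transcript was thus Slc7a8 in every PSNPs library and Slc7a5 in every IR-813 library, and the ratio of Slc7a5 to Slc7a8 was 0.326 ± 0.0283 with PSNPs and 1.64 ± 0.0588 with IR-813 (SD, n = 3 each). This ratio is taken within a library, so it does not depend on scaling between libraries. An exact 2-sided permutation test gave p = 0.1, the smallest that 3 against 3 libraries allow. The light chains summed to 163 ± 6.06 with PSNPs and 266 ± 30.5 with IR-813, and the ratio of Slc3a2 to that sum was 2.60 ± 0.431 and 2.38 ± 0.102, with overlapping groups (exact permutation p = 0.7). Slc7a11, which also pairs with Slc3a2, stood at 50.6, 61.2 and 25.3 with PSNPs, against 82.7, 70.1 and 52.0 with IR-813. With it in the sum, Slc7a5 made up 17.2% ± 2.38 with PSNPs and 43.8% ± 0.320 with IR-813, and Slc7a8 52.6% ± 4.13 and 26.8% ± 0.839 (SD, n = 3 each). The ratio of Slc3a2 to that larger sum was 2.06 ± 0.524 with PSNPs and 1.90 ± 0.0342 with IR-813, also with overlapping groups.

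**Figure D2:**
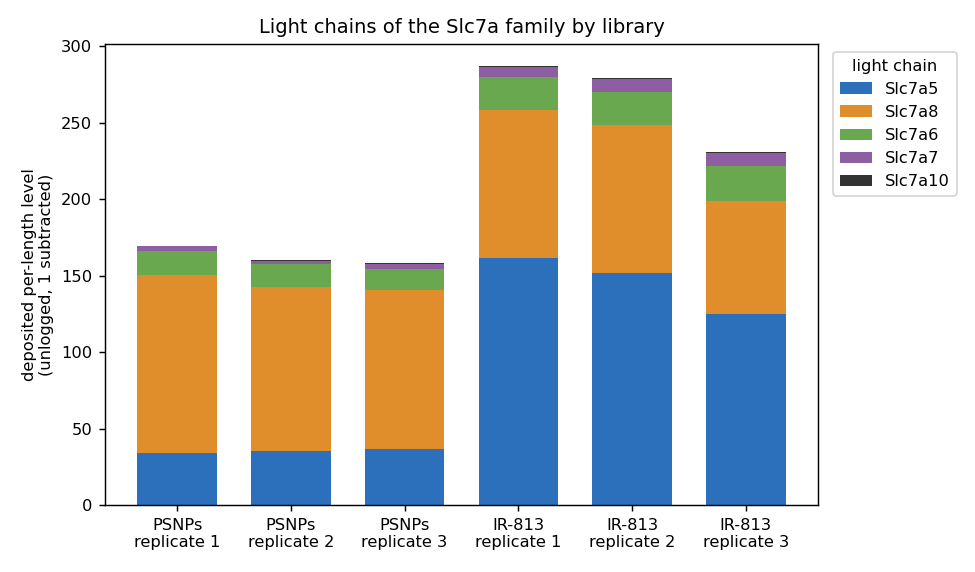
Per-length levels (deposited values, unlogged and with 1 subtracted, y axis) of the 5 tested light chain genes in each library (x axis), stacked. The Slc7a5 segment is 34.4 to 36.6 in the PSNPs libraries and 125 to 162 in the IR-813 libraries, while the Slc7a8 segment is 104 to 116 and 74.4 to 97.1.

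Slc3a2 was the most abundant of the 55 genes per length in both groups, with 41.6% of their summed level with PSNPs and 40.7% with IR-813. Slc7a8, Slc38a2 and Slc1a5 came next with PSNPs (10.8%, 6.20% and 6.19%), and Slc7a5, Slc38a2 and Slc7a8 with IR-813 (9.38%, 6.37% and 5.74%). Slc38a2 and Slc1a5 averaged 62.6 and 62.7 per length with PSNPs and did not differ beyond their spread there. Slc7a1 was ranked 18 with PSNPs and 7 with IR-813, and Slc6a9 22 and 10.

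A glycine carrier gene had the next largest fall. Slc6a9 encodes GlyT1, which takes glycine up from the space around glia and so limits how much of it reaches the co-agonist site of NMDA receptors. It had 17.5, 19.7 and 19.1 CPM with PSNPs, against 129, 121 and 95.3 CPM with IR-813. The PSNPs libraries were tightly grouped and 6.14-fold lower (log2 fold change −2.62 ± 0.14, adjusted p = 9.77e-05). The neuronal glycine carrier gene Slc6a5 had at most 3 counts in any library. Of 11 enzymes of glycine, creatine and taurine metabolism, 5 were higher and 2 lower with PSNPs, with a median log2 fold change of 0.29. The called share of this list was 63.6%, against 41.0% of all tested genes. Both serine hydroxymethyltransferases, which make glycine from serine, fell, with Shmt2 at 131 ± 16.5 CPM with PSNPs and 302 ± 34.9 CPM with IR-813 and Shmt1 at 14.2 ± 0.448 and 21.7 ± 1.59 CPM. Enzyme genes of the route from cysteine to taurine rose, with Cdo1 at 32.3 ± 2.19 CPM with PSNPs and 16.8 ± 2.98 CPM with IR-813 and Csad at 34.5 ± 2.29 and 22.7 ± 2.02 CPM. The count of enzymes that rose was 3 when IR-813 replicate 1 or replicate 2 was left out.

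A carrier gene for betaine and GABA was higher. Slc6a12 encodes BGT1, a carrier of betaine and GABA that cells also use against osmotic stress. It stood at 17.7, 10.2 and 17.5 CPM with PSNPs, against 6.58, 5.73 and 5.41 CPM with IR-813. The groups did not overlap, PSNPs replicate 2 lay nearest to the IR-813 libraries, and the log2 fold change was 1.36 ± 0.23 (adjusted p = 0.00412). Slc6a11, the astrocyte carrier gene GAT3, overlapped between the groups at 13.2 ± 3.51 CPM with PSNPs and 15.5 ± 1.99 CPM with IR-813 (−0.23, adjusted p = 0.414). Slc6a13, the GAT2 gene, had at most 2 counts.

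Of the 7 vesicular transmitter transporters, which load synaptic vesicles, 4 were tested. For 3 of these every PSNPs library lay under the count minimum, so they entered the test through the IR-813 libraries alone and had to differ, and only their counts are given. Slc32a1, which loads GABA and glycine, had 3, 2 and 3 counts with PSNPs, against 89, 98 and 80 with IR-813. The acetylcholine loader Slc18a3 had 1, 0 and 2 counts with PSNPs, against 18, 27 and 28 with IR-813. The monoamine loader Slc18a1 had 4, 3 and 2 counts with PSNPs, against 26, 13 and 14 with IR-813. The other monoamine loader, Slc18a2, was above the minimum in every library and did not pass (−0.39, adjusted p = 0.0952). The summed neuron markers were lower in the same PSNPs libraries, and the part of neurons in these values was not tested. Of 10 enzymes of glutamate and GABA metabolism, 4 fell and 2 rose, with a median of −0.24. This put 60% of them among the called genes, against 41.0% of all tested genes. The GABA-making enzyme Gad1, which is also in the neuron marker list, was at −4.19 ± 0.17 and the transaminase Got1 at −0.49 ± 0.09. Glul, the glutamine synthetase of astrocytes, rose to 2282 ± 219 CPM, against 1409 ± 239 CPM with IR-813 (0.70, adjusted p = 0.0100). The call of Glul was lost when IR-813 replicate 2 was omitted (adjusted p = 0.0510, the highest of the 11 alternatives), leaving 0 enzymes higher and 2 lower, and 1 was higher when IR-813 replicate 1 was omitted.

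Among the carriers of family 1, the 2 that passed were lower. Slc1a4 encodes ASCT1, a carrier of serine and alanine. It had 42.4, 51.7 and 31.5 CPM with PSNPs, against 117, 106 and 83.8 CPM with IR-813. Every PSNPs library was lower, with a log2 fold change of −1.29 ± 0.20 (adjusted p = 0.00309). Slc1a1 encodes EAAT3, the neuronal glutamate and cysteine carrier. It had 31.7, 33.6 and 18.6 CPM with PSNPs, against 55.5, 56.0 and 57.3 CPM with IR-813. PSNPs replicate 3 was the lowest and the IR-813 libraries were nearly equal (−1.01 ± 0.21, adjusted p = 0.00944). Slc1a5, the glutamine carrier ASCT2, overlapped between the groups at 154 ± 11.2 CPM with PSNPs and 179 ± 23.1 CPM with IR-813 and did not pass (−0.22 ± 0.12, adjusted p = 0.16). Slc1a6 and Slc1a7, the EAAT4 and EAAT5 genes, had at most 13 counts. The 4 carriers left out by the choice of symbols did not pass with all libraries. They were the astrocyte glutamate carriers Slc1a2 (0.77 ± 0.40) and Slc1a3 (−0.03 ± 0.12), Slc7a2 (−0.63 ± 0.46) and the cystine carrier Slc7a11 (−0.58 ± 0.33), and without PSNPs replicate 3 Slc1a2 was higher (1.15, adjusted p = 2.00e-05).

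System A and system N carriers of family 38 move glutamine between astrocytes and neurons. Slc38a2 encodes SNAT2, a system A carrier whose transcript rises when amino acids are short. It had 325, 308 and 235 CPM with PSNPs, against 502, 461 and 413 CPM with IR-813, with no overlap (−0.66 ± 0.14, adjusted p = 0.00989). The second system A gene, Slc38a1, had 58.9, 63.4 and 21.8 CPM with PSNPs, against 76.6, 75.3 and 70.2 CPM with IR-813. Its PSNPs libraries were all lower but so unequal that the test did not pass (−0.62 ± 0.36, adjusted p = 0.199), and without PSNPs replicate 3 it was −0.28 (adjusted p = 0.00638). Slc38a3, the system N carrier gene of astrocytes (SNAT3), was the only one of the family called higher with all libraries. It had 62.7, 73.8 and 70.5 CPM with PSNPs, against 44.3, 46.1 and 52.1 CPM with IR-813, without overlap (0.54 ± 0.11, adjusted p = 0.00724). Of the 10 astrocyte markers 5 were higher and 1 was lower, and their summed level overlapped between the groups. The other members tested in this family were Slc38a6 at 0.45 ± 0.18, the lysosomal glutamine carrier gene Slc38a7 at −0.25 ± 0.13 and Slc38a9 at 0.22 ± 0.18, none of which passed. Slc38a9 encodes the lysosomal arginine sensor upstream of the growth kinase mTORC1.

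The proton-coupled carrier genes Slc36a1 and Slc36a4 showed no call with all libraries, and neither did the lysosomal Slc38a7 and Slc38a9. The lysosomal carrier genes Slc15a4 and Ctns, from another list, were called lower and are described below. Slc36a1 had 10.98, 11.2 and 4.96 CPM with PSNPs, against 11.5, 10.6 and 11.9 CPM with IR-813 (−0.33 ± 0.29, adjusted p = 0.397). Slc36a4 had 12.9, 10.9 and 4.90 CPM with PSNPs, against 12.6, 15.5 and 14.1 CPM with IR-813 (−0.55 ± 0.32, adjusted p = 0.210). In both genes the low value was that of PSNPs replicate 3, and the other PSNPs libraries were near the IR-813 libraries. Slc36a2 and Slc36a3 had at most 2 counts. Of 18 genes of amino acid sensing upstream of mTORC1, 6 rose and 2 fell, with a median of 0.11. The share called was 44.4%, close to the 41.0% of all tested genes. The 4 with the smallest p were the GTPase genes Rragd (0.99 ± 0.19) and Rraga (0.30 ± 0.08), the scaffold gene Lamtor2 (0.75 ± 0.14) and Nprl2 (0.52 ± 0.11). The genes that fell, named after their values were seen, were the partners Fnip1 (−0.80 ± 0.21, adjusted p = 0.0199) and Flcn (−0.26 ± 0.08, adjusted p = 0.0283). These counts depended on single libraries, with 2 higher and 0 lower when IR-813 replicate 2 was omitted, 3 and 0 when IR-813 replicate 1 was, and 10 and 5 when PSNPs replicate 3 was. The number lower was 1 on leaving out any of the other 3 libraries. Of the sestrin genes, Sesn1 and Sesn3 were in this list and did not pass. Sesn2 was counted instead among the genes that answer a shortage of amino acids, described below. It was lower (−2.37 ± 0.18, adjusted p = 0.000187) and was named after its value was seen.

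A neuronal carrier of neutral amino acids and a carrier of bases were also called lower. Slc6a15 encodes B0AT2, a neuronal carrier of branched-chain amino acids and proline. It had 6.85, 8.65 and 6.68 CPM with PSNPs, against 21.2, 20.3 and 19.9 CPM with IR-813. The groups were well apart (−1.47 ± 0.14, adjusted p = 0.000379), and the neuron markers were lower in the same libraries. Slc43a3, whose human form carries purine bases, had 2.71, 2.60 and 3.03 CPM with PSNPs, against 6.58, 7.26 and 7.63 CPM with IR-813. All its PSNPs libraries were lower (−1.36 ± 0.14, adjusted p = 0.000607). Its relatives did not pass, with Slc43a1, the LAT3 gene, at −0.50 ± 0.25 and Slc43a2, the LAT4 gene, at −0.04 ± 0.11. Slc6a17, a vesicular carrier of neutral amino acids in neurons, ranged from 94.5 to 139 CPM with PSNPs and from 95.8 to 149 CPM with IR-813 (−0.12 ± 0.20, adjusted p = 0.658).

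The taurine carrier Slc6a6 and the creatine carrier Slc6a8 did not pass with all libraries. Slc6a6 had 79.0, 66.9 and 26.9 CPM with PSNPs, against 56.2, 60.9 and 62.6 CPM with IR-813. PSNPs replicates 1 and 2 lay above all IR-813 libraries and replicate 3 below them, so that the log2 fold change was −0.06 ± 0.35 with all libraries and 0.29 without replicate 3 (adjusted p = 0.0184). Slc6a8 had 152 ± 7.90 CPM with PSNPs and 175 ± 9.36 CPM with IR-813, a small difference without overlap (−0.20 ± 0.08, adjusted p = 0.0828). It passed with library size as the only scaling (−0.28, adjusted p = 0.0319) and without PSNPs replicate 3 (−0.17, adjusted p = 0.0436), with adjusted p between 0.0319 and 0.252 under the 11 alternatives. The RNA polymerase factor Slc7a6os was at −0.45 ± 0.16 (adjusted p = 0.0564).

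**Figure D3:**
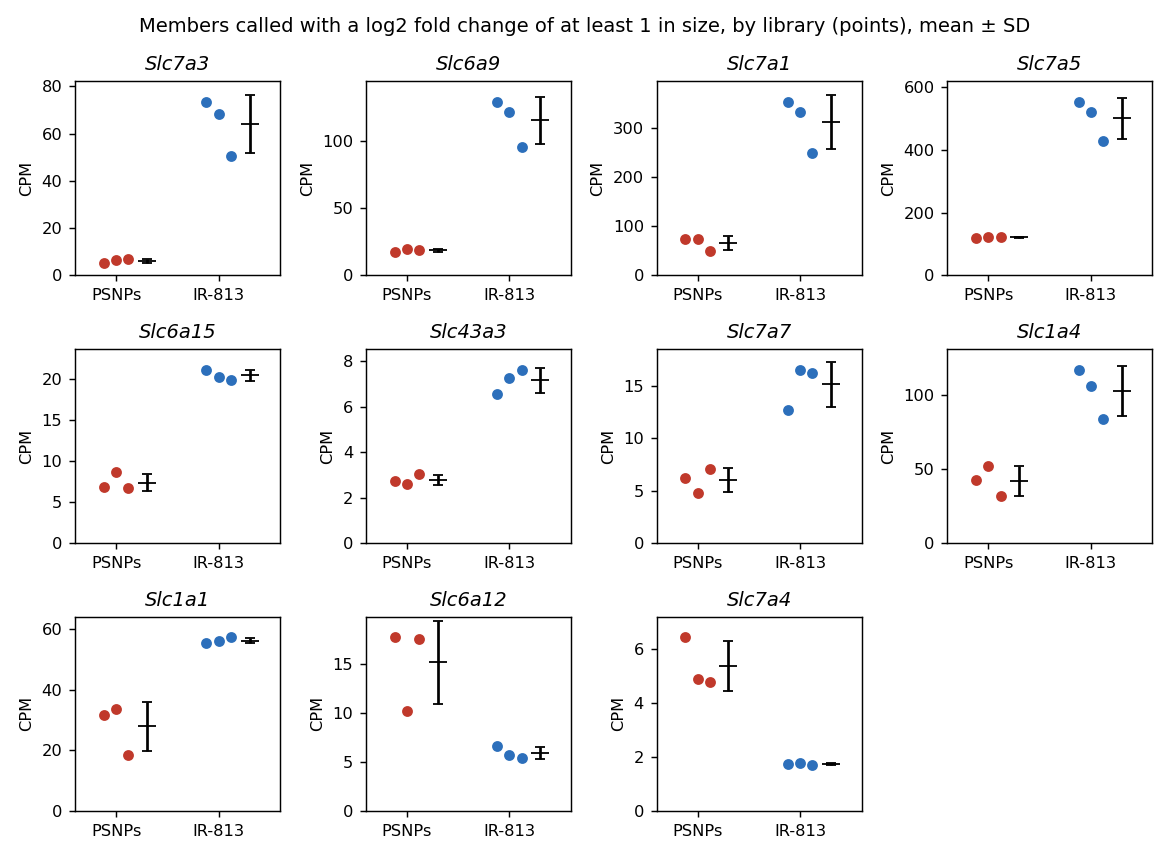
CPM (y axes, linear from 0) in each PSNPs and IR-813 library (points) with the mean ± SD (black, n = 3 each) for the 11 genes called with a log2 fold change of at least 1 in size. In none of the panels do the groups overlap, which the choice of called genes favours. Among all tested genes 61.4% did not overlap. Slc6a12 and Slc7a4 are the panels with the PSNPs libraries on top.

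Monoamine carriers were at or near 0. The dopamine carrier gene Slc6a3 had at most 1 count in any library and the serotonin carrier gene Slc6a4 at most 8. The norepinephrine carrier gene Slc6a2, Slc6a14, Slc6a18 and Slc7a13 had no count in any library, which allows up to 0.133 to 0.157 CPM per library for counting error alone. The other members under the filter had at most 15 counts in any library. Without a filter 18 of these 22 genes had a count and could be tested, and Slc7a14 was the only one that passed.

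Of 9 other amino acid and peptide carriers in the table, 8 were tested, of which 3 fell and 1 rose (median −0.13). Calls thus covered 50% of the tested carriers of this list, near the 41.0% of all tested genes. The lysosomal peptide carrier gene Slc15a4 had 47.7 ± 3.24 CPM with PSNPs and 83.0 ± 4.12 CPM with IR-813, and the lysosomal cystine carrier gene Ctns 23.2 ± 2.88 and 33.1 ± 2.47 CPM. The aromatic amino acid carrier gene Slc16a10 was at −1.03 ± 0.34 near 1 CPM, a call lost in 8 of 11 alternatives, with adjusted p between 0.0506 and 0.138 in those 8. Slc25a18, a mitochondrial glutamate carrier gene of astrocytes, rose to 82.6 ± 13.7 CPM with PSNPs, against 39.1 ± 8.67 CPM with IR-813 (1.08, adjusted p = 0.00457). Only 1 carrier of this list was lower when IR-813 replicate 1 or replicate 2 was left out, and 2 were higher when PSNPs replicate 2 was left out.

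Genes known to answer a shortage of amino acids were lower as well. Of 16 tested genes of this list, 13 fell, 0 rose and 3 did not pass, with a median log2 fold change of −1.35. The share called lower was 81.25%, against 20.1% of all tested genes. The transcription factor gene Atf4 had 193, 185 and 245 CPM with PSNPs, against 564, 540 and 441 CPM with IR-813 (−1.31 ± 0.15, adjusted p = 0.000768). Asns, the asparagine synthetase gene, had 37.2, 39.6 and 46.0 CPM with PSNPs, against 204, 177 and 135 CPM with IR-813 (−2.07 ± 0.17). Both were picked after their values were seen. In both genes the groups were far apart, and IR-813 replicate 3 was the lowest of its group. Stc2, a secreted glycoprotein gene of the same response, was at −3.78 ± 0.24, and Trib3, Chac1 and Atf5 at −4.28 ± 0.25, −3.79 ± 0.23 and −1.83 ± 0.13. This list was chosen with its behaviour in these data known, and no set test was made.

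The element that ATF4 and its C/EBP partners bind in such genes has the core TGATGNAA. It was searched on both strands in the RefSeq windows of build GRCr8, which reach from 250 bases before to 50 bases after a start, and no other motif was searched. Windows were found for 42 of the 55 members. The core was present in 3 of these 42, in 2 of 9 members called lower, in 0 of 1 called higher and in 1 of 15 tested without a call. Counted per gene, as for the members, it was present in 1141 of all 27457 genes with a window (4.16%). Counted per window, it was present in 1332 of all 33469 windows (3.98%). Both counts include untested genes. Among tested genes with a window it was present in 55 of 1742 that were lower (3.16%). For genes that were higher this was 31 of 1850 (1.68%), and for genes not called 96 of 5275 (1.82%). The 3 windows are printed because they are the ones among the carriers in which the letters occur, shown in capitals, from 5′ to 3′ on the strand of the gene. Slc7a1 (chr12:11664238-11664537, plus strand) holds it at position −30 from the start, Slc1a4 (chr14:98761513-98761812, minus strand) at −235 on the opposite strand and Slc38a1 (chr7:129681352-129681651, minus strand) at −142.
Slc7a1: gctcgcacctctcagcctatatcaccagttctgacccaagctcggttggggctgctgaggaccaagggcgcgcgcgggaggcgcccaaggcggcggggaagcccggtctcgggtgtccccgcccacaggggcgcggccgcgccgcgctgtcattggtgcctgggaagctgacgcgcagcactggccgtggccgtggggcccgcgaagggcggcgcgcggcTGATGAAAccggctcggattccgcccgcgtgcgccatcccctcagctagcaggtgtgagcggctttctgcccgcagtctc
Slc1a4: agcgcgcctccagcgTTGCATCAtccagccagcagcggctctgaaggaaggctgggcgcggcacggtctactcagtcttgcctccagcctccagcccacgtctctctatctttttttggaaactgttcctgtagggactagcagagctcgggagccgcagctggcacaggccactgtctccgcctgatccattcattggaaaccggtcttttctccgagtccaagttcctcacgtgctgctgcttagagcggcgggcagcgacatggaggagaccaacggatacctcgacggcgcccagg
Slc38a1: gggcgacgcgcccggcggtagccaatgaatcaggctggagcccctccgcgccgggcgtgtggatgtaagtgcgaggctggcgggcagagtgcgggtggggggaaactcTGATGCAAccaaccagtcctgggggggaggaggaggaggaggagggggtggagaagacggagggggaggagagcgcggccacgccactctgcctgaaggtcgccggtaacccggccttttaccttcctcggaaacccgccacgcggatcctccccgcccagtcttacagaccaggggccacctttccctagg
Slc7a1 and Slc1a4 were called lower and Slc38a1 was not called. The windows of Slc7a5, Slc6a9 and Slc3a2 did not hold these letters, which says nothing of regions outside them, and no binding was measured.

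**Figure D4:**
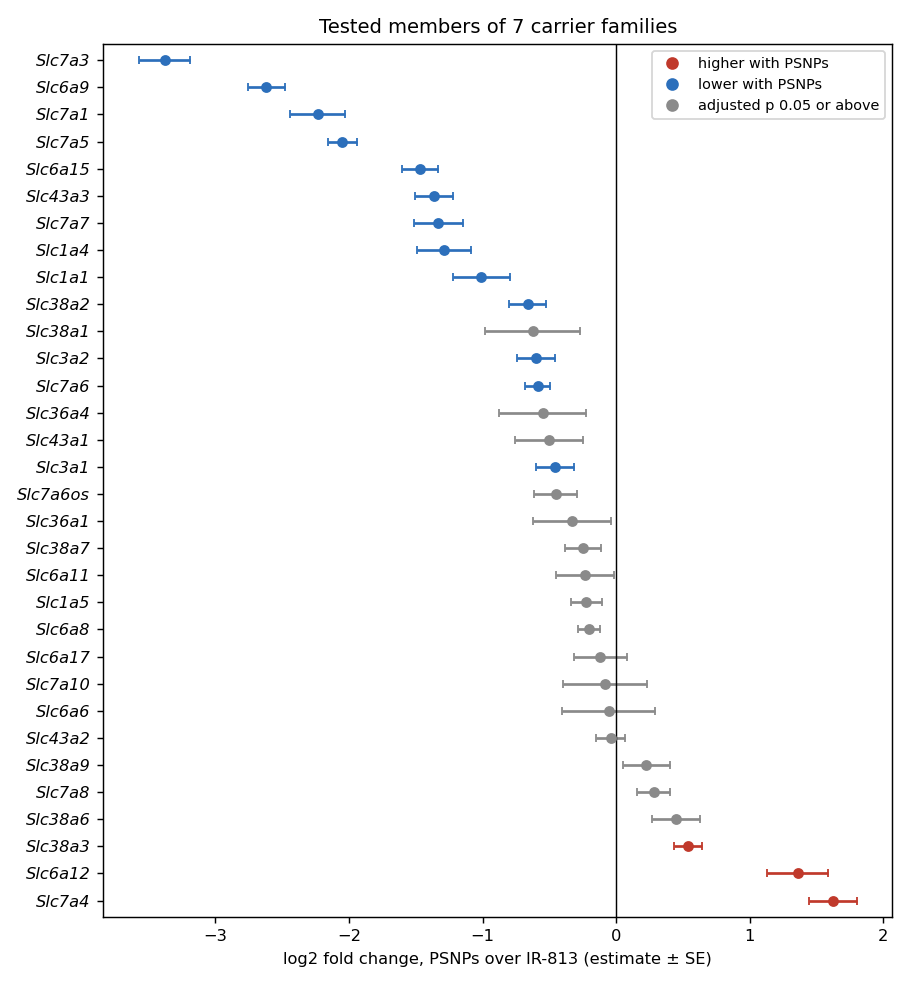
Log2 fold change of PSNPs over IR-813 (x axis, estimate ± SE from edgeR, n = 3 libraries each) for 32 of the 33 tested members (y axis), coloured by call. The 13 genes drawn as lower run from −3.38 for Slc7a3 to −0.46 for Slc3a1, and the 3 called higher from 0.54 for Slc38a3 to 1.62 for Slc7a4.

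The PSNPs libraries were not alike for every carrier. PSNPs replicate 3 was the lowest of its group for 21 of the 33 tested members (63.6%) and for 44.1% of all tested genes. It lay more than 1 log2 unit further down than its fellow libraries for Slc38a1 (−1.77, against −0.33 and −0.22 in replicates 1 and 2, relative to the IR-813 mean), Slc36a4 (−1.52, against −0.12 and −0.36), Slc36a1 (−1.20, against −0.05 and −0.02) and Slc6a6 (−1.16, against 0.40 and 0.16). Among the 4 largest falls the PSNPs libraries were close to each other for 3 genes, at −3.65, −3.31 and −3.22 for Slc7a3, −2.72, −2.55 and −2.59 for Slc6a9 and −2.08, −2.04 and −2.04 for Slc7a5, while Slc7a1 was at −2.06, −2.07 and −2.65. Across the 33 genes the correlation of log CPM was 0.994 between PSNPs replicates 1 and 2 and 0.970 between either and replicate 3, a description across genes that are not independent.

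**Figure D5:**
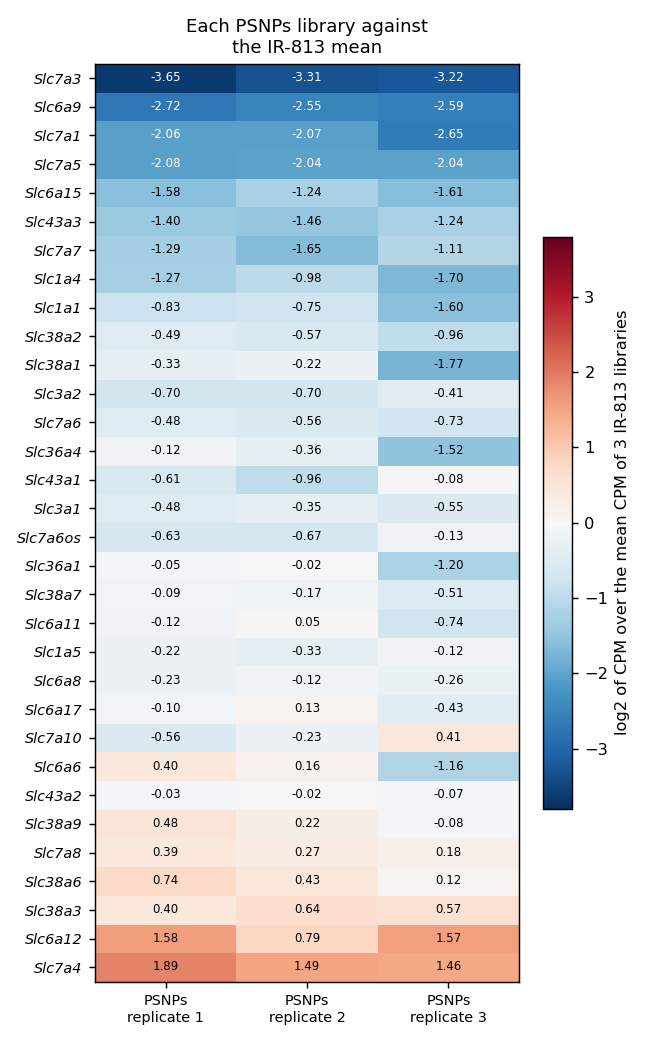
Log2 of the CPM in each PSNPs library (columns) over the mean CPM of the 3 IR-813 libraries, for 32 of the 33 tested members (rows, ordered by fold change). Rows such as Slc6a9, at −2.72, −2.55 and −2.59, are even across libraries, while Slc38a1, Slc36a4, Slc36a1 and Slc6a6 are clearly bluer in replicate 3 than in the others.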

How the data were processed

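The authors deposited a table of read counts (whole numbers, 1 row per gene symbol) from 6 libraries, 3 with PSNPs and 3 with IR-813, and 1 file of log2 values per library, with no scaling named in the labels. Per the submitters' processing notes, the tool was bcl2fastq and the build mRatBN7.2. The aligner, the counter and any use of strand are unstated there and in the labels, so reads of copies, overlapping genes and pseudogenes cannot be assigned with certainty. Groups and replicate numbers come from the sample titles, and the deposited columns are named con for IR-813 and NPS for PSNPs. Nothing says that replicates are separate cultures or animals, so the spread behind each p-value may be technical only.

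Counts were filtered (filterByExpr, minimum count 10, at least 0.478 CPM in 3 libraries), scaled with TMM and given to the quasi-likelihood test of edgeR 4.0.16 (R 4.3.3), with treatment as the only term and Benjamini-Hochberg adjustment over all 11679 tested genes. CPM are on the TMM-scaled library sizes. The SE is the fold change divided by the square root of F. A single value cannot reach an exact p under 0.1 with 3 against 3. The deposited log2 values were unlogged and 1 was subtracted. In 7920 genes with at least 200 counts in every library, 99.7% of these values were proportional to the gene's counts within 0.05 log2 units, after 1 factor per library, and for 99.8% of 7395 genes the implied length did not exceed the distance the gene covers in the reference. These values serve for levels between genes, not for the test. Alternatives used DESeq2 1.42.0, limma 3.58.1 and changed filters, scaling and libraries. The genes named follow a rule that gives every library's value for members called with a log2 fold change of at least 1 and a mean of at least 1 CPM, and up to 4 genes of smallest p per list. Members, role groups and the 6 gene lists were chosen with earlier results of these data known. Genes of a list that are not in the table were not analysed here, and 1 tested member and 1 listed enzyme are counted but not reported here by name. The labels name no molecular identifiers, so limits from counts cover counting error only. The samples were not paired by replicate number in the fit.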

Additional observations from a re-analysis of the deposited data

How the results depend on the processing

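Of the 17 carriers called, 15 kept their direction and their call under all 11 alternatives, and Slc3a1 and Slc3a2 kept their direction. Leaving out 1 library at a time gave 3 to 7 of the 55 genes higher and 12 to 19 lower. Among the 19 are Slc7a6os, not a carrier, and Slc7a14, which entered that fit through the IR-813 libraries alone. Of all genes, 1339 to 3591 were higher and 1473 to 3478 lower. In the gene lists this gave 0 to 3 higher and 2 to 4 lower for glutamate and GABA enzymes, 3 to 7 higher for glycine, creatine and taurine enzymes, 2 to 10 higher and 0 to 5 lower for amino acid sensing, and 1 to 2 higher and 1 to 3 lower for other amino acid and peptide carriers. DESeq2 gave 2 higher in the last list. With library size as the only scaling 1943 genes were higher and 2852 lower, against 2439 and 2351 with TMM, and 3 of the 55 were higher and 16 lower, among them Slc7a6os. Direction changed only for genes without a call. On leaving out 1 library, the log2 fold change of Slc43a2 lay between −0.13 and 0.029, of Slc6a17 between −0.29 and 0.018, of Slc6a6 between −0.35 and 0.29, of Slc7a10 between −0.39 and 0.12, and of Slc1a3, which is not among the 55, between −0.086 and 0.066. The positive values arose without PSNPs replicate 3 for Slc6a6, Slc6a17 and Slc1a3, without IR-813 replicate 1 for Slc6a17 and Slc7a10, without PSNPs replicate 1 for Slc7a10, and without IR-813 replicate 3 for Slc43a2. Same-numbered libraries deviated from their group means with correlations of −0.01, 0.01 and 0.12, so the numbers were not taken to pair them. With the replicate block 3 carriers were higher and 13 lower, and 1 gene of amino acid sensing was lower. The causes were not tested. Carriers under the count filter, at 15 counts or fewer, cannot be compared firmly at this depth.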

Other observations

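Within the IR-813 group, replicate 3 was the lowest library for 8 of the 14 carriers called lower, or 57.1%, against 50.4% of all 2351 genes called lower and 39.4% of all tested genes. For Slc7a3 it stood at 50.4 CPM, against 73.4 and 68.3 CPM in replicates 1 and 2, and for Slc7a1 at 249 CPM, against 353 and 333 CPM. It lay above every PSNPs library for each of the 14 genes, which the choice of called genes favours. Among all tested genes 31.4% did not overlap on the lower side.

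The summed per-length level of the 55 genes was 1011 ± 11.2 with PSNPs and 1556 ± 178 with IR-813 (SD, n = 3 each). The deposited scale is not TMM-scaled, and the unlogged values of all genes summed to 649699, 638181 and 797898 in the PSNPs libraries, against 596965, 598201 and 593274 in the IR-813 libraries. As a share of raw counts, the 55 genes took 0.264%, 0.267% and 0.249% with PSNPs, against 0.465%, 0.442% and 0.379% with IR-813.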
